A study of Homo sapiens with 4 samples.

Results

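Annexins are proteins that bind negatively charged phospholipids in the presence of calcium, through a conserved core of repeated domains, while a variable N-terminal region sets their partners. They act at the inner face of the plasma membrane and on endosomes, in vesicle fusion, membrane repair and the anchoring of actin, and some are also found outside the cell. Several of them are abundant in cultured adherent cells, melanoma cells included. The RNA levels of 10 annexin genes, ANXA1 to ANXA7 and ANXA9 to ANXA11, were examined among the 2864 genes with values in the table used here. The 10 were taken as a family by gene name, with no value in the rule, and the gene descriptions in the table named each of the 10 as an annexin.

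The study sequenced total RNA of A375 cells, a human melanoma line known to carry an activating mutation of the kinase BRAF, which the inhibitor vemurafenib targets. The 4 libraries came from untreated parental cells (A375P), a resistant strain kept under vemurafenib at rising concentrations (A375R), cells in 1‰ DMSO for 48 h (A375+DMSO) and cells in 2 μM vemurafenib for 48 h (A375+VEM). All 4 shared the cell line, the medium with serum, the genotype label Wild Type and the batch label. There was 1 library per condition and A375R was a single strain, so no difference below has a replicate check and none was tested.

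The values are the authors' read counts and their TPM, which is the count per gene length scaled over the whole library. The table used here is the alphabetical start of the gene list, and its counts summed to between 1891215 and 2054277 per library, which is part of the depth. Of genes known from pigment cells, 7 were taken as markers, and their summed TPM lay between 71.3 and 114, with 4 to 6 of them at a TPM of at least 1. BIRC7 and ABCB5 were at 18 and 6 reads or fewer, and CA14 was at a TPM of 0.568 to 5.26. The sum came mostly from BCAN, ACP5, APOE and ASAH1. Whether these genes are particular to pigment cells was not examined, so the sum does not by itself mark them. Of 8 genes of blood and immune cells, ARHGDIB alone reached a TPM of 1, and C1QA had no reads in any library. Of 5 genes of keratinocytes and other epithelia, 3 or 4 reached a TPM of 1, at summed TPM between 14.4 and 37.2. The classic melanocyte markers outside this alphabetical range were not analysed here.

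Of the 10 annexins, 8 reached a TPM of at least 1 and did so in every library. ANXA3 and ANXA10 did not reach it in any, so they entered no count of genes past a threshold. The summed TPM of the 10 genes came to 2892 for A375P, 3155 for A375R, 3097 for A375+DMSO and 3359 for A375+VEM. The 4 sums were close to each other, at a ratio of 1.09 for A375R against A375P and 1.08 for A375+VEM against A375+DMSO. The makeup of that sum differed more than its size. ANXA2, ANXA1 and ANXA5 together held 93.3% of it for A375P, 86.6% for A375R, 87.0% for A375+DMSO and 89.2% for A375+VEM. ANXA2 was the first of the annexins in A375P, A375R and A375+VEM, whereas ANXA1 was first in A375+DMSO.

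**Figure D1:**
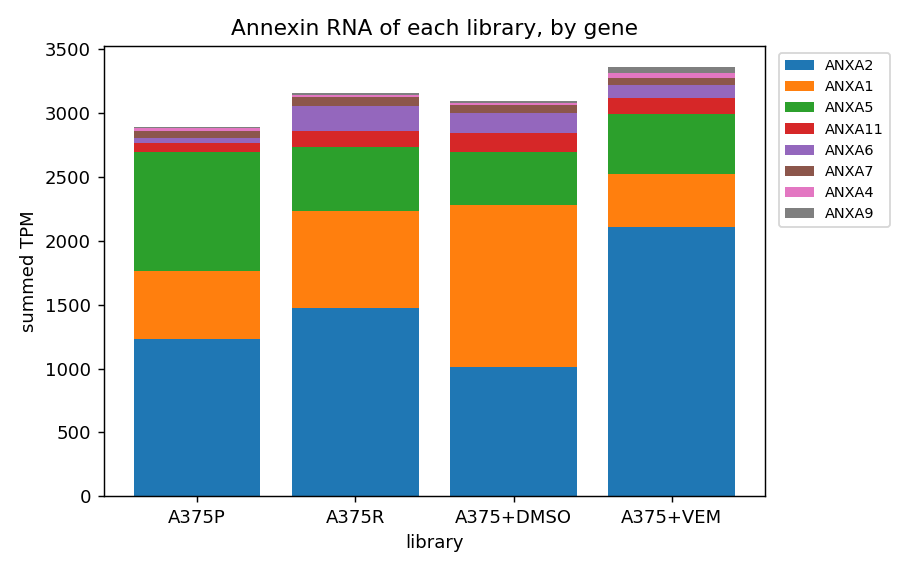
Stacked bars of TPM for the 8 annexins with a TPM of at least 1, 1 bar per library, each colour a gene. The bars are of similar height, between 2892 and 3359, while the ANXA2 part runs from 1011 (A375+DMSO) to 2107 (A375+VEM), whereas the ANXA1 part is largest for A375+DMSO (1268) and smallest for A375+VEM (416).

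The start regions of the annexins that differed most or were most abundant are shown because they differ widely in base composition and motifs. RefSeq start windows on GRCh38.p14, from 250 bases before to 50 bases after the start, were found for all 10 genes, with 14 windows in all. Both strands were searched for TGAGTCA (the AP-1 motif, bound by Fos and Jun factors, which act downstream of MAP kinases), CACGTG (the E-box, bound by MITF, MYC and other factors), GGAATG (the TEAD motif) and TATAAA (the TATA box). Capitals mark every match of these 4 motifs. The windows are ANXA2 at chr15:60397937-60398236, minus strand; ANXA1 at chr9:73151615-73151914, plus strand; ANXA5 at chr4:121696931-121697230, minus strand; ANXA6 at chr5:151157730-151158029, minus strand, the more upstream of 2 starts; and ANXA9 at chr1:150982042-150982341, plus strand.
ANXA2: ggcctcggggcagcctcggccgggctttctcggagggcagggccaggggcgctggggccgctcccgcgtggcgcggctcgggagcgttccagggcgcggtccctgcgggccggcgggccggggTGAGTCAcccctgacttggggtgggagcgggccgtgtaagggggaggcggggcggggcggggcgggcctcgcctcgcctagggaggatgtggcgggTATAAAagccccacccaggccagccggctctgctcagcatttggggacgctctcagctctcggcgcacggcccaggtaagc
ANXA1: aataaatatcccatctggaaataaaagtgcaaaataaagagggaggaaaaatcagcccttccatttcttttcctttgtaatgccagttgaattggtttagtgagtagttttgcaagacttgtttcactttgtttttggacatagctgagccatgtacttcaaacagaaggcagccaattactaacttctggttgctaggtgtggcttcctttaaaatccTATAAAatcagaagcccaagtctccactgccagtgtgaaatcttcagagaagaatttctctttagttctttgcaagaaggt
ANXA5: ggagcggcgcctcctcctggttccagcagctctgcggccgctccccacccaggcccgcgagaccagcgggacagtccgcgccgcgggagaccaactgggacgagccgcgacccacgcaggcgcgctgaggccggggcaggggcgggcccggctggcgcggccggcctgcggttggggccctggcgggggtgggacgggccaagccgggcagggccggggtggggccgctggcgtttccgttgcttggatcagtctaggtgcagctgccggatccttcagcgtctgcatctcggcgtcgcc
ANXA6: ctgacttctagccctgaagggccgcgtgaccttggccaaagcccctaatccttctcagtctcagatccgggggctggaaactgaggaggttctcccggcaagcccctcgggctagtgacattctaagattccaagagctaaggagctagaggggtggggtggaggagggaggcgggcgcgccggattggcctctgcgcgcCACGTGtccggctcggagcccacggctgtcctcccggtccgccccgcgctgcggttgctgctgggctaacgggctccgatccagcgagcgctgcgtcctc
ANXA9: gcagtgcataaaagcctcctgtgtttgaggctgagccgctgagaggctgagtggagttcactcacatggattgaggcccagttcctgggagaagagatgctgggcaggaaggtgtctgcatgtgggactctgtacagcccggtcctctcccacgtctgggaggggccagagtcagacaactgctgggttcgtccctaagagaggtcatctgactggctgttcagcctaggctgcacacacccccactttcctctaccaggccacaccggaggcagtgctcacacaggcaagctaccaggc

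The ANXA2 window held 1 AP-1 motif, 127 bases before the start, and a TATA box 31 bases before it. The ANXA1 window also held a TATA box 31 bases before the start but no AP-1 motif. In base composition ANXA1 and ANXA2 lay far apart, with 37.7% G and C and no CpG in ANXA1 against 76.0% and 32 CpG in ANXA2. The ANXA5 window was as rich as that of ANXA2, at 76.3% with 36 CpG, and held none of the 4 motifs. The upstream ANXA6 window held an E-box 50 bases before the start, and the ANXA9 window held none of the 4 motifs. Among the windows not shown, an ANXA4 window held an E-box 216 bases before the start. A TATA box lay 29 bases before the start in the ANXA10 window and 61 bases before it in an ANXA11 window. The rest of those not shown held none of the 4 motifs. Of all 35116 windows of this length, 4.95% held the AP-1 motif, 7.26% the E-box, 14.0% the TEAD motif and 11.5% the TATA box. None of the 14 annexin windows held the TEAD motif. A match of letters is a description and not a site of binding.

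ANXA2 forms a complex with S100A10 that binds plasminogen activators at the cell surface and ties the membrane to actin and AHNAK. It lies at chr15:60639350-60690185 on the minus strand, in the coordinates of the authors' table, for which the submitters' notes name hg19. ANXA2 had 19164 reads for A375P, 20696 for A375R, 14648 for A375+DMSO and 30322 for A375+VEM. These gave a TPM of 1234, 1475, 1011 and 2107 in the same order. A375+VEM was the highest library, and there ANXA2 was the second gene of the 2864 by TPM, while in A375+DMSO it was the ninth. Its ratio was 2.08 for A375+VEM against A375+DMSO, with an exact (Clopper-Pearson) 95% counting interval from 2.04 to 2.13 on the reads of the 2 libraries. These intervals compare the libraries and cover counting error only. Against A375P the ratio in A375+VEM was 1.71 (95% counting interval 1.68 to 1.74), so A375+VEM lay above both A375P and A375+DMSO. For A375R the ratio was 1.20 against A375P (95% counting interval 1.17 to 1.22) and 1.46 against A375+DMSO (95% counting interval 1.43 to 1.49), both within 1.5-fold. In bulk RNA, a different level per cell and a different mix of cells cannot be told apart.

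ANXA2 has processed copies in the genome, and its reads are uncertain to that extent. Of the 50-base words of the ANXA2P2 transcript in GENCODE 29, 59.2% also occur in an ANXA2 transcript. ANXA2P2 had 77 reads for A375P, 60 for A375R, 37 for A375+DMSO and 91 for A375+VEM, or 0.253% to 0.402% of the reads of ANXA2. ANXA2P2 was at a log2 ratio of 1.28 in A375+VEM against A375+DMSO. How much of this came from reads of ANXA2 was not tested. ANXA2P1 and ANXA2P3 had 4 reads or fewer in each library.

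ANXA1 is a glucocorticoid-induced protein that restrains phospholipase A2 and, once secreted, acts on formyl peptide receptors. It lies at chr9:75766647-75785309 on the plus strand. ANXA1 had 6983 reads for A375P, 9059 for A375R, 15570 for A375+DMSO and 5073 for A375+VEM, a TPM of 531, 762, 1268 and 416. A375+DMSO stood above the other three libraries and A375+VEM was the lowest. The level was 3.05-fold lower in A375+VEM than in A375+DMSO (95% counting interval 2.95 to 3.15), but 1.28-fold lower than in A375P (95% counting interval 1.23 to 1.32). The size of the difference under acute vemurafenib therefore depends on which library without the drug is the control. A375+DMSO was itself 2.39-fold above A375P (95% counting interval 2.32 to 2.46). For A375R the direction depends on the control as well, with 1.44-fold more than A375P (95% counting interval 1.39 to 1.48) and 1.66-fold less than A375+DMSO (95% counting interval 1.62 to 1.71). ANXA1 held 41.0% of the annexin TPM in A375+DMSO and 12.4% in A375+VEM.

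ANXA5 binds phosphatidylserine, a lipid that dying cells expose, and the purified protein is the usual probe for apoptotic cells. It lies at chr4:122589152-122618147 on the minus strand. ANXA5 had 12773 reads for A375P, 6123 for A375R, 5301 for A375+DMSO and 6000 for A375+VEM, a TPM of 932, 495, 415 and 473. A375P stood apart at the top, and the other three lay within 1.19-fold of each other. The level was 1.88-fold lower in A375R than in A375P (95% counting interval 1.83 to 1.94), while against A375+DMSO it was 1.19-fold higher (95% counting interval 1.15 to 1.24). For A375+VEM against A375+DMSO, the acute pair, the ratio was 1.14 (95% counting interval 1.10 to 1.18).

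ANXA6 is the large member of the family, which sits on cholesterol-rich membranes and recruits a GTPase activator that switches Ras off. It lies at chr5:150480267-150537443 on the minus strand. ANXA6 had 1060 reads for A375P, 4715 for A375R, 3923 for A375+DMSO and 2495 for A375+VEM, a TPM of 39.7, 196, 157 and 101. A375P was the lowest library and A375R the highest, so that ANXA6 was 455th of the 2864 genes by TPM in A375P and 66th in A375R. A375R exceeded A375P 4.92-fold (95% counting interval 4.61 to 5.27), the largest ratio of any annexin in that pair. Against A375+DMSO, A375R was 1.24-fold higher (95% counting interval 1.19 to 1.30), as A375+DMSO was already 3.97-fold above A375P (95% counting interval 3.71 to 4.25). In A375+VEM the level was 1.56-fold lower than in A375+DMSO (95% counting interval 1.48 to 1.64, which spans 1.5) and 2.54-fold higher than in A375P (95% counting interval 2.36 to 2.73).

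ANXA11 tethers RNA granules to lysosomes and binds the calcium sensor ALG-2. It lies at chr10:81914880-81965433 on the minus strand. ANXA11 had 2179 reads for A375P, 3598 for A375R, 4270 for A375+DMSO and 3602 for A375+VEM, a TPM of 70.1, 128, 147 and 125. A375P was the lowest library, as for ANXA6. Unlike for ANXA6, the other libraries were close together. A375R exceeded A375P 1.83-fold (95% counting interval 1.73 to 1.93) and 1.15-fold lower than in A375+DMSO (95% counting interval 1.10 to 1.20). In the acute pair the ratio was 0.849 (95% counting interval 0.812 to 0.888).

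ANXA9 is an atypical annexin that lacks the usual calcium-binding residues of the core. It lies at chr1:150954499-150968114 on the plus strand. ANXA9 had 95 reads for A375P, 173 for A375R, 186 for A375+DMSO and 618 for A375+VEM, a TPM of 6.08, 12.3, 12.8 and 42.7. A375+VEM was far above the others, and A375R and A375+DMSO were close to each other. The ratio of A375+VEM was 3.35 against A375+DMSO (95% counting interval 2.84 to 3.96) and 7.02 against A375P (95% counting interval 5.65 to 8.81), the widest range over the 4 libraries among the 8 annexins with a TPM of at least 1. A375R was 2.02-fold above A375P (95% counting interval 1.56 to 2.62), while against A375+DMSO the ratio was 0.961 (95% counting interval 0.777 to 1.19), with no difference detectable at this depth.

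ANXA4 is a membrane annexin best known from epithelia. It lies at chr2:69870937-70053609 on the plus strand. ANXA4 had 803 reads for A375P, 564 for A375R, 601 for A375+DMSO and 1175 for A375+VEM, a TPM of 24.8, 19.3, 19.9 and 39.1. Like ANXA2 and ANXA9, it was highest in A375+VEM. The ratio was 1.97 against A375+DMSO (95% counting interval 1.78 to 2.18) and 1.58 against A375P (95% counting interval 1.44 to 1.73). The ratio of A375R was 0.778 against A375P (95% counting interval 0.697 to 0.867) and 0.969 against A375+DMSO (95% counting interval 0.863 to 1.09). ANXA4 overlaps the gene AAK1 on the other strand in GENCODE 29, with no exon bases in common.

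ANXA7, also called synexin, aggregates secretory granules. It lies at chr10:75134859-75173843 on the minus strand. ANXA7 had 1170 reads for A375P, 1317 for A375R, 1312 for A375+DMSO and 1105 for A375+VEM, a TPM of 53.8, 67.1, 64.7 and 54.9. It was the steadiest of the 8 annexins, with 1.25-fold between its highest and lowest library. In GENCODE 29 an antisense RNA gene shares 105 exon bases with ANXA7. Whether strand was used in counting is not given in the sources used here, so reads of the antisense RNA could not be told from those of ANXA7.

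ANXA3 and ANXA10 were near the limit of detection. ANXA3, at chr4:79472742-79531605 on the plus strand, had 8 reads in A375+DMSO and 1 in each of the other libraries. Its ratio of A375+DMSO to A375P was 8.57 with a 95% counting interval from 1.15 to 380. ANXA10, at chr4:169013688-169108893 on the plus strand and best known from the stomach, had 4 reads in A375+VEM, 2 in A375+DMSO and 1 each in A375P and A375R. No difference of ANXA10 was detectable at this depth. The annexin genes ANXA8, ANXA8L1 and ANXA13, which are in the table but not among the 10, had 5 reads or fewer in each library. Of the 50-base words of the ANXA8L1 transcript, 81.7% occur in an ANXA8 transcript, so reads of this pair could be exchanged.

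**Figure D2:**
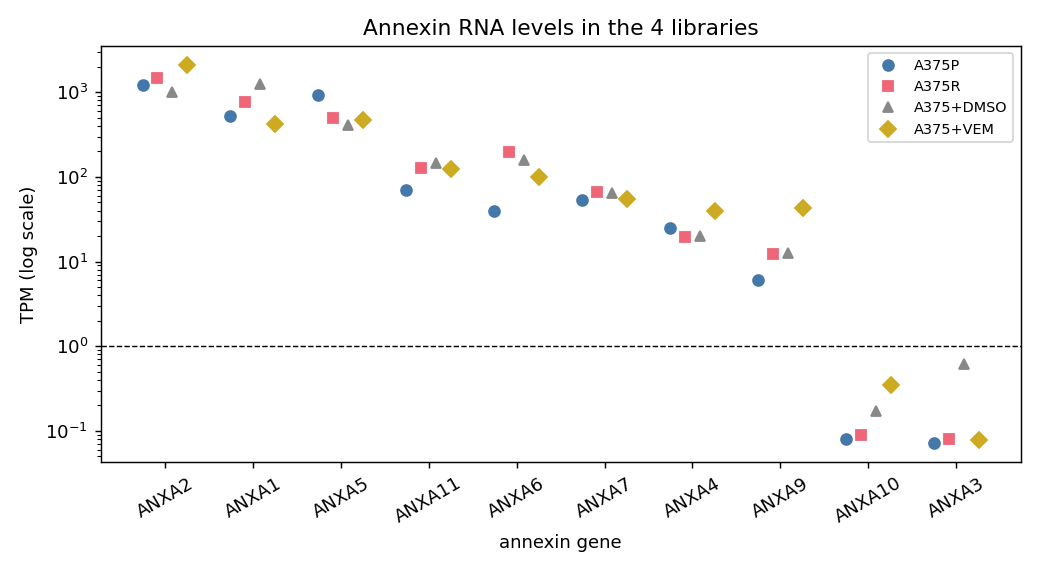
TPM on a log axis for the 10 annexins, ordered by their overall level, with 1 point per library and a dashed line at a TPM of 1. ANXA3 and ANXA10 lie below the line in every library. Among the others, A375P (circles) is the lowest library for ANXA6, ANXA9, ANXA11 and, narrowly, ANXA7, and the highest for ANXA5.

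The order of the annexins by TPM, which is per gene length, differed between the libraries. In A375P it ran ANXA2, ANXA5, ANXA1, ANXA11, ANXA7, ANXA6, ANXA4 and ANXA9. In A375R and A375+DMSO ANXA6 stood directly after the 3 most abundant genes. In A375+VEM, ANXA9 stood above ANXA4 at a ratio of 1.09, and the 95% counting interval of that ratio, from 0.988 to 1.20, held 1. ANXA3 and ANXA10 were the other neighbours whose interval held 1, in all 4 libraries. All other neighbours differed by more than counting error, the closest being ANXA6 and ANXA11 in A375+DMSO at 1.07 (95% counting interval 1.02 to 1.12).

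To read the family against the other genes, a gene was called higher or lower when (TPM + 0.1) differed by over 1.5-fold, considering genes that reached a TPM of 1 in either library. Log2 ratios are on this scale, which understates differences of low genes. For A375R against A375P, 3 of 8 annexins were called higher (ANXA6, ANXA9 and ANXA11), against 26.8% of all 1689 genes compared. ANXA5 was the 1 called lower, against 17.5% of all genes. The shares of annexins were not far from this background, and the median log2 ratio of the 8 was 0.42 against 0.10 over all genes. With A375+DMSO as the reference of A375R, 0 of 8 annexins were called higher (10.5% of 1702 genes) and ANXA1 was the 1 called lower (9.99%). There the log2 ratio was 0.31 for ANXA6, -0.057 for ANXA9, -0.20 for ANXA11 and 0.25 for ANXA5. The 4 annexins called in A375R against A375P were therefore within 1.5-fold of A375+DMSO. Among the markers, CA14 (-1.60), ASAH1 (-1.02), ALOX12B (-0.60) and ALOXE3 (-2.32) were called lower in A375R against A375P and APOE (0.91), AQP3 (1.91) and ARHGDIB (1.44) higher, and their part in the annexin differences was not tested.

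For A375+VEM against A375+DMSO, 3 of 8 annexins were called higher (ANXA2, ANXA4 and ANXA9), against 26.5% of all 1784 genes compared. ANXA1 and ANXA6 were called lower, against 19.7% of all genes. The log2 ratios were 1.06 for ANXA2, 0.97 for ANXA4, 1.73 for ANXA9, -1.61 for ANXA1 and -0.64 for ANXA6. Members thus went both ways, with a median of -0.02 over the 8, where all genes had a median of 0.11. The median of the absolute log2 ratio was 0.81 for the annexins and 0.52 for all genes. It was larger for the annexins in A375+DMSO against A375P, both without the drug, at 1.06 against 0.53. For A375R it was 0.70 against 0.51 with A375P as the control, and 0.23 against 0.27 with A375+DMSO. In A375+VEM against A375+DMSO the summed TPM was 114 against 71.3 for the 7 pigment cell genes. The largest parts in A375+VEM were ASAH1 (32.9 against 16.2), ACP5 (31.2 against 19.8) and APOE (26.3 against 17.2). Of the 7, 6 were compared and 5 were called higher, against 26.5% of all genes. Scaling to a median ratio of 1 left 3 (ACP5 and APOE were lost). BIRC7, called higher with and without this scaling, had 18 reads against 9. Its ratio of 2.01 had a counting interval from 0.859 to 5.09, which held 1. In A375P the 7 pigment cell genes summed to 90.9, with ASAH1 at 32.4. With A375P as the control of A375+VEM, BIRC7, CA14, ACP5 and APOE were called higher. ASAH1 (log2 ratio 0.021) was within 1.5-fold there, and BCAN was called lower at -1.01. Of the 5 epithelial genes AQP3 was called higher in the acute pair, with a TPM of 31.0 against 8.02, while the other 4 summed to 6.28 against 6.43. The part of these genes in the annexin differences was not tested.

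A375+DMSO and A375P, both without vemurafenib, also differed in annexins. Of the 8, ANXA1, ANXA6, ANXA9 and ANXA11 were called higher in A375+DMSO, against 26.8% of all 1720 genes compared, and ANXA5 was called lower, against 18.9%. Their log2 ratios were 1.26, 1.99, 1.06, 1.07 and -1.17 in that order. The summed TPM of the 8 blood and immune genes was 1.83 in A375P and between 5.01 and 5.47 in the other libraries, mostly from ARHGDIB. Of the epithelial genes, BNC1 (log2 ratio -1.30), ALOX12B (-0.60) and ALOXE3 (-3.85) were called lower in A375+DMSO than in A375P and AQP3 was called higher (2.00), with a list median of -0.95. Of the pigment cell genes, BCAN (-1.14) and ASAH1 (-0.997) were called lower and ACP5 (0.88) and APOE (0.60) higher. The part of these genes in the annexin differences was not tested. This pair and the pair of A375R and A375P share the library A375P, and the solvent cannot be told apart from any other difference between the 2 cultures. The range of log2(TPM + 0.1) over the 4 libraries had a median of 1.12 for the 8 annexins and 1.15 for the 1817 genes that reached a TPM of 1 in any library.

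**Figure D3:**
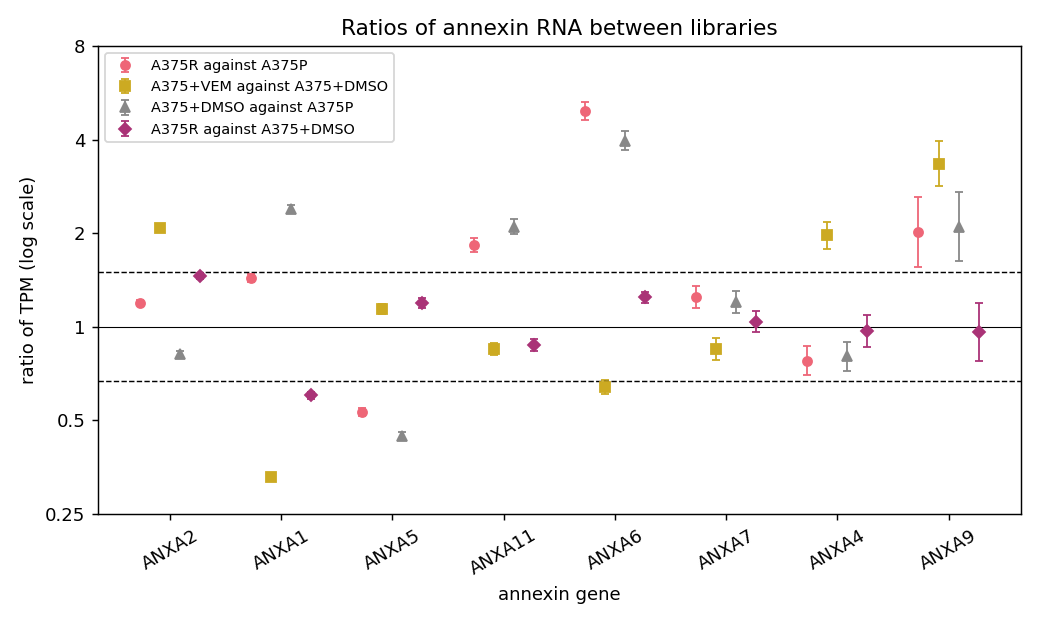
Ratios of TPM on a log axis for the 8 annexins with a TPM of at least 1, with 1 symbol per comparison, bars for the exact 95% counting interval and dashed lines at 1.5-fold in either direction. For ANXA5, ANXA6, ANXA9 and ANXA11 the circles (A375R against A375P) lie beside the triangles (A375+DMSO against A375P), while the diamonds (A375R against A375+DMSO) lie between 0.870 and 1.24.

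Partners of annexins and membrane skeleton genes in the alphabetical range of the table were taken as a list of 7 genes. All 7 were compared. AHNAK, the giant scaffold bound by the ANXA2 complex, was at a TPM of 225 for A375P, 257 for A375R, 236 for A375+DMSO and 337 for A375+VEM. Its log2 ratio of 0.52 in the acute pair was below the threshold of 0.58. In the same pair ACTB and ACTG1, the cytoplasmic actins, were called lower at -0.62 and -0.79, and ACTN1, an actin crosslinker, at -1.68. AHNAK2, a relative of AHNAK, was called higher in that pair at 0.60. These calls depended on the control. With A375P as the control of A375+VEM, AHNAK2 was instead called lower at -1.68, and ACTN1 stayed lower at -1.23. ACTB (-0.56) and ACTG1 (-0.45) were then within 1.5-fold, and ANXA2R (0.71) and ACTN4 (0.64) were called higher. For A375R against A375P, ANXA2R (named annexin A2 receptor) was called higher at 1.40, ACTN1 at 0.92 and ACTN4 at 1.18, and AHNAK2 was called lower at -1.14. With A375+DMSO as the reference of A375R, AHNAK2 was instead called higher at 1.14, and ANXA2R (0.22), ACTN1 (0.48) and ACTN4 (0.10) were within 1.5-fold. ANXA2R rested on 24 reads in A375P and 59 in A375R. The medians of the list were 0.51 for A375R against A375P and -0.47 in the acute pair, where all genes had 0.10 and 0.11.

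Flippases move phosphatidylserine or other lipids to the inner leaflet, depending on the protein, and the scramblase ANO6 lets lipids out. The lipid and membrane of each were not examined. Counts of the list are therefore not a measure of the phosphatidylserine that ANXA5 can reach from outside. Of 14 such genes examined, 12 were compared. For A375R against A375P, 6 were called higher and 0 lower, against 26.8% and 17.5% of all genes, with a median log2 ratio of 0.54 against 0.10. The largest was ATP8B3 at 3.17, which had 4 reads in A375P and 67 in A375R, followed by ATP8A1 at 2.15 and ATP8A2 at 1.56. ATP10B was at 0.82, ATP9A at 0.78 and ATP8B2 at 0.59. For A375+DMSO against A375P, which shares the library A375P, 7 were called higher and 0 lower, against 26.8% and 18.9% of all genes. With A375+DMSO as the reference, 0 of the 12 were called higher in A375R and ATP10A was called lower at -1.35. In the acute pair 3 of the 12 were called higher and 4 lower, against 26.5% and 19.7% of all genes, with a median of -0.054 against 0.11. ATP10B was higher at 1.11, ATP10D at 0.89 and ATP8A1 at 0.87, while ATP9A was lower at -1.02, ATP10A at -0.98, ATP11A at -0.71 and ATP8B3 at -0.68. With A375P as the control of A375+VEM, ATP8B3 was instead called higher at 2.71. ATP9A (-0.35) and ATP10A (-0.04) were then within 1.5-fold, and ATP11A stayed lower at -1.02. ATP10B (1.75), ATP10D (0.90) and ATP8A1 (3.58) stayed higher. ANO6 was at 0.25 for A375R against A375P and at -0.23 in the acute pair. After scaling to a median ratio of 1, ATP8B2 was lost for A375R against A375P and AHNAK2 in the acute pair. For A375+DMSO against A375P the same scaling left 4 of the 7 flippases, without ATP8B2, ATP9A and ATP10B.

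**Figure D4:**
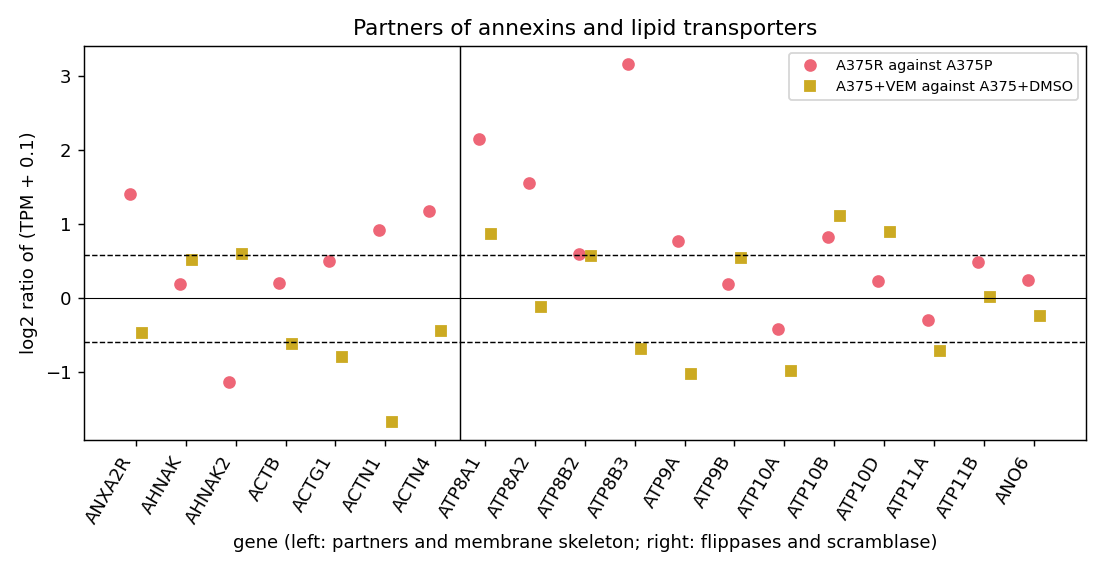
Log2 ratios of (TPM + 0.1) for the 7 partners and membrane skeleton genes (left of the line) and the 12 flippases and scramblase compared (right), with circles for A375R against A375P and squares for A375+VEM against A375+DMSO. Dashed lines mark 1.5-fold, and the circles of the flippases that pass it lie above, from 0.59 to 3.17.

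Genes with a profile like those of ANXA9, ANXA6 and ANXA1, the annexins with the widest range above a TPM of 10, were sought among 1227 genes that reached this level. Likeness was the Euclidean distance between centred log2(TPM + 0.1) values over the 4 libraries, and with 4 points it is a description. C1orf198 was nearest to ANXA9 at a distance of 0.09, with TPM values of 15.0 for A375P, 30.2 for A375R, 32.6 for A375+DMSO and 99.0 for A375+VEM. BTD (biotinidase) followed at 0.18 and ADAMTS7, a secreted protease, at 0.22. ADA (adenosine deaminase) was nearest to ANXA6 at 0.34, followed by ABHD11 at 0.39 and ANKRD34A at 0.43. BCL2L12 was nearest to ANXA1 at 0.46, followed by AUNIP at 0.52 and ARHGEF39 at 0.53. For ANXA1 these distances were larger than for ANXA9.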

How the data were processed

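RNA of 4 conditions of A375 cells was sequenced, with 1 library each, and groups were taken from the sample labels. The authors deposited 1 table with read counts per gene, which are whole numbers without normalization, and with TPM, obtained per gene length and scaled over the library. The submitters' processing notes name hg19, HISAT2, HISAT, TopHat2 and Bowtie2 without roles, and the counting program, annotation and strandedness are not given in the sources used here. The table used holds 2864 genes with values, after 1 incomplete row was left out.

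Ratios were computed on (TPM + 0.1) for genes reaching a TPM of 1 in either library, with a threshold of 1.5-fold. Ratios of single genes are of TPM, with exact Clopper-Pearson 95% counting intervals on the reads. With 1 library per condition no test across samples was made. All 10 annexins were named, of the partner and flippase lists the genes past 1.5-fold (AHNAK and ANO6 were added after their values were seen), and the 3 nearest profiles of the 3 annexins with the widest range among those reaching a TPM of 10. A gene of the flippase list is not reported here and was left out of its counts. The members and lists were chosen with earlier results of these data known. Promoter windows came from the RefSeq table on GRCh38.p14 and overlaps from GENCODE 29 on GRCh38, and no coordinates were converted. The ratio and interval steps were tested on counts simulated with counting error only, which does not cover variation between cultures. Alternatives are given in the closing section. Tables were handled in pandas 2.3.3 and numpy 2.4.6 under Python 3.11.15, intervals came from scipy 1.17.1 and plots from matplotlib 3.10.9. Reads may be PCR copies and not independent molecules. The intervals treat each read as independent, so they may be too narrow even for counting error. They cover no other variation.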

Additional observations from a re-analysis of the deposited data

Results flagged for a closer look

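ANXA6 differed by over 1.5-fold in each pair of the study but with opposite signs. Its log2 ratio was 2.30 for A375R against A375P and -0.64 for A375+VEM against A375+DMSO, and whether these ratios differ was not tested. Of 8 annexins compared in both pairs it was the 1 past 1.5-fold in both with opposite directions, where 200 of 1656 genes of the table met this rule. These shares were close to each other. ANXA9 was the 1 annexin past 1.5-fold in both pairs with the same direction, as were 168 of the 1656 genes. With A375P as the control, ANXA6 in A375+VEM was at a log2 ratio of 1.34.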

How the results depend on the processing

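With 1 library per condition, no replicate could be left out, so results resting on a single library cannot be told from its own variation. No paired analysis was possible because each condition has 1 library. A threshold of 2-fold left 1 annexin higher (ANXA6) and 0 lower in A375R against A375P, 1 lower (ANXA1) in A375+VEM against A375+DMSO, and 0 lower in A375R against A375+DMSO. When the whole 95% counting interval had to pass 1.5-fold, 1 annexin was lower in the acute pair, since the interval of ANXA6 spans the threshold. Without the filter on low values, 2 annexins were lower in A375R against A375+DMSO, ANXA3 with 1 read against 8 being added. The other counts of annexins stayed within 1.5 times under these settings, pseudocounts of 1 and 0.01, a TPM of at least 5 and scaling to a median ratio of 1.

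The summed TPM depended on ANXA2 and on the scaling. For A375R against A375P its log2 ratio was 0.13, and 0.019 without ANXA2 and 0.027 after scaling to a median ratio of 1. For A375+VEM against A375+DMSO it was 0.12, and -0.74 without ANXA2 and 0.012 after scaling. For A375+DMSO against A375P it was 0.099, and 0.33 without ANXA2 and 0.0060 after scaling. For A375R against A375+DMSO it was 0.027, and -0.31 without ANXA2. Scaling moved the log2 ratios in the acute pair by 0.11, and by 0.02 to 0.10 in the others.

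With A375+DMSO as the control of A375R, the log2 ratio changed sign to 0.25 for ANXA5, -0.057 for ANXA9, -0.20 for ANXA11 and -0.73 for ANXA1. With A375P as the control of A375+VEM it changed sign to 1.34 for ANXA6, -0.98 for ANXA5, 0.83 for ANXA11 and 0.027 for ANXA7. The scaling of the other gene lists was added after the data were seen. The causes were not tested.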
